A study of Mus musculus with 31 samples.

Results

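The genes described here are the 7 neuropeptide precursors Calca, Calcb, Tac1, Adcyap1, Gal, Nmb and Nppb, followed in ribosome-bound RNA from axons and cell bodies of mouse pain-sensing neurons. They were chosen by symbol: all 7 symbols matched an Ensembl identifier of the GENCODE M21 annotation in both deposited count tables, out of 55536 identifiers in each. The rule names symbols and uses no measured value, although earlier results of these data were known when they were listed. RNA was obtained by translating ribosome affinity purification (TRAP), in which a GFP-tagged ribosomal protein, made only where Cre recombinase has acted, lets the ribosomes of chosen cells be pulled down with their mRNA. Cre mice carried Nav1.8-Cre;L10a-eGFP-fl/fl (the titles spell L10a-eGP-fl/fl), so that the tag followed the Nav1.8 promoter, the promoter of the sensory neuron sodium channel gene Scn10a. Control mice carried L10a-eGFP-fl/fl alone, the same floxed allele with no Cre, and went through the same pulldown.

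The central axon groups came from lumbar dorsal root and spinal cord, in the batch labelled 1, with 4 Cre and 4 control libraries. The peripheral axon groups came from sciatic nerve, in batch 2, with 4 Cre and 3 control libraries. Somas (lumbar dorsal root ganglion, DRG) were sequenced in both batches, with 4 Cre and 4 control libraries in each, which makes 8 groups and 31 libraries. Mouse ages and any treatment are not given in the sources used here. Axon site and batch therefore cannot be told apart by setting the axon groups side by side, and each axon group was compared with the somas and controls of its own batch.

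Neuropeptides are cut from longer precursors inside the secretory pathway, packed into dense core vesicles and released from both ends of the sensory neuron, into the dorsal horn and into the skin and other targets. Calca and Calcb encode the α and β forms of calcitonin gene-related peptide (CGRP), a vasodilator and the classical marker of peptidergic nociceptors; Calca also encodes calcitonin by alternative splicing. Tac1 encodes substance P and neurokinin A, Adcyap1 encodes the pituitary adenylate cyclase-activating peptide PACAP, and Gal encodes galanin, a peptide known to increase in sensory neurons after nerve injury. Nmb encodes neuromedin B and Nppb encodes B-type natriuretic peptide, both of which take part in itch signalling.

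The sequences of the CGRP genes are shown because they bear on how well their reads can be told apart. Calca (ENSMUSG00000030669) lies on the minus strand at chr7:114631478-114636357 and Calcb (ENSMUSG00000030666) on the plus strand at chr7:114718643-114723365 of GRCm38. Over 381 aligned coding bases, the CGRP-encoding transcript Calca-201 and the transcript Calcb-201 were identical at 325, or 85.3%. The longest identical run was 60 bases, in capitals below, inside stretches of 150 coding bases from GENCODE M21 (bases 182 to 331 of Calca-201 and 185 to 334 of Calcb-201, 5′ to 3′).
Calca-201: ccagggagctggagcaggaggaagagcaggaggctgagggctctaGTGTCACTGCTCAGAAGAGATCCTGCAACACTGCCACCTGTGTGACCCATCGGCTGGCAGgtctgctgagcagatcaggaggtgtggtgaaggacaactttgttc
Calcb-201: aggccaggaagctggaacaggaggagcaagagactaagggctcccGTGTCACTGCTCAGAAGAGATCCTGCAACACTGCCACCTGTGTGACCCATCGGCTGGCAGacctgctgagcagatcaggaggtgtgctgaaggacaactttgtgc
The transcript Calca-202, a different splice form, shared at most 13 identical bases in a row with Calcb-201. A short read inside the 60-base run fits both genes, and how such reads were counted is not given in the sources used here, so levels of Calca and Calcb carry that uncertainty.

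The promoters of Calca and Tac1 are shown because a script found the same 8 letters in both. In RefSeq windows of 250 bases before the start (GRCm38.p6; 6 of the 7 genes matched and Adcyap1 had 2 windows), the motif TGACGCAA, read on both strands, was present in Calca 65 bases before the start and, as TTGCGTCA, in Tac1 200 bases before it. It was present in 144 of 32851 promoter windows, or 0.438%.
Calca, chr7:114636358-114636607, minus strand: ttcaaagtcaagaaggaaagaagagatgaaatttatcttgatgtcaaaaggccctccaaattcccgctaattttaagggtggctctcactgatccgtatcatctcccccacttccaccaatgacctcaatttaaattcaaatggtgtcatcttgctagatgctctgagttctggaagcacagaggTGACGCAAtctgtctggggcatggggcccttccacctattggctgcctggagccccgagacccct
Tac1, chr6:7554811-7555060, plus strand: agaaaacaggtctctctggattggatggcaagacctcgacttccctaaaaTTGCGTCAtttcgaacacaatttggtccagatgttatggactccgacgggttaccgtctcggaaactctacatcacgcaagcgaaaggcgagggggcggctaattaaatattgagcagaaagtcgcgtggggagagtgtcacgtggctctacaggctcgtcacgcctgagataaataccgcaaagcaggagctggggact
The full cAMP response element TGACGTCA was in none of the members' windows and in 1.55% of all windows. The letters TATAAA were in the windows of Nppb (31 bases before the start) and Adcyap1 (58 bases before the start of its second window), and in 12.4% of all windows. The motifs were chosen after the windows were read, and a match describes letters only.

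The other genes lie apart from each other. Tac1 (ENSMUSG00000061762) is at chr6:7554879-7565834 on the plus strand, Adcyap1 (ENSMUSG00000024256) at chr17:93199017-93206537 on the plus strand and Gal (ENSMUSG00000024907) at chr19:3409915-3414544 on the minus strand. Nmb (ENSMUSG00000025723) is at chr7:80902227-80905076 on the minus strand, where 20.6% of its exon length also belongs to Sec11a on the same strand, so its level is uncertain by those shared reads. Nppb (ENSMUSG00000029019) is at chr4:147985788-147987205 on the plus strand. No exon of the other members overlapped another annotated gene.

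Levels are given as CPM, the gene's reads scaled by the library total, per M (mega) reads. Library totals ran from 3.6 to 19.6 M reads, and 3 counts, the least taken as detectable, came to 0.153 to 0.833 CPM. Several control libraries were poor in transcripts: the batch 1 soma controls held 4934 to 7889 genes with at least 10 counts, against 12502 to 14015 in the soma Cre libraries of that batch. Control replicate 3 of those somas also had a TMM scaling factor of 0.0497, computed over all 31 libraries, far from the others. Each fit computed its own factors from the groups it used. Fold changes are log2 values after TMM scaling, which corrects for library make-up, with a standard error (SE); a gene was called when the Benjamini-Hochberg adjusted p of edgeR's quasi-likelihood test over all genes tested was under 0.05. Scn10a, whose promoter drives the Cre, ran from 45.1 to 421 CPM in central axon Cre libraries and from 0 to 29.9 CPM in their controls. In peripheral axon it ran from 42.1 to 304 CPM with Cre and from 0 to 127 CPM without.

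Calca was the most abundant member per length in all 16 Cre libraries. In central axon Cre libraries its level was 1781, 812, 262 and 398 CPM in replicates 1 to 4. Replicate 1 held the most, and the lowest of the group was still above every control. The central axon controls held 21.1, 55.4, 0 and 25.8 CPM. Replicate 3 of these controls had no Calca read among 8.1 M, yet held 80.3 CPM of Calcb. It was also poor in transcripts, with 7251 genes at 10 counts or more, against 10890 to 15153 in the other central axon controls.

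In the somas Calca was higher than in the axons of the same batch on average. Soma Cre libraries of batch 1 held 1503, 2669, 1035 and 1017 CPM, and those of batch 2 held 1111, 888, 1723 and 1908 CPM. Soma controls were not free of it: batch 1 controls held 706 (replicate 1), 596 (replicate a), 23.0 (replicate 3) and 200.04 CPM (replicate b). The letters a and b stand for 2 control columns that bear the same name in the deposited table. Batch 2 soma controls held 948, 449, 1040 and 961 CPM, so that they overlapped the Cre libraries. In peripheral axon Cre libraries Calca stood at 230.1, 476, 276 and 289 CPM, and the 3 controls held 442, 156 and 117 CPM, with overlap.

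Calcb, the second CGRP gene, was lower than Calca per length in all Cre libraries. Its levels were 133, 80.2, 44.1 and 68.5 CPM in central axon Cre libraries and 17.6, 12.4, 80.3 and 16.9 CPM in their controls, which overlapped through control replicate 3. Batch 1 somas gave 184, 249, 148 and 95.9 CPM with Cre. Their controls gave 79.5, 0, 2.27 and 0 CPM (replicates 1, a, 3 and b), all below the Cre libraries. Peripheral axon Cre libraries had little Calcb, at 5.84, 18.1, 13.7 and 48.4 CPM, and their controls had 36.7, 0 and 0 CPM. Batch 2 somas had 87.3, 65.3, 135 and 138 CPM with Cre and 69.6, 47.6, 77.2 and 69.5 CPM without, with overlap.

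The ratio of Calca to Calcb reads gives another view of this gene pair. In batch 2 soma Cre libraries it was narrow, from 12.7 to 13.9 reads of Calca for each read of Calcb. It ran from 6.99 to 10.7 in batch 1 soma Cre libraries and from 5.81 to 13.4 in central axon Cre libraries. Peripheral axon Cre libraries spread most, from 5.97 to 39.4, on 24, 272, 56 and 279 reads of Calcb in replicates 1 to 4. In central axon controls the ratio was 0 to 4.46, below all central axon Cre libraries.

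Tac1, the substance P gene, was present in central axon controls at levels like those of the Cre libraries. The Cre libraries held 302, 198, 69.1 and 157 CPM and the controls 147, 83.0, 98.7 and 304 CPM. Soma Cre libraries held 524, 577, 270.5 and 621 CPM in batch 1 and 308, 176, 357 and 384 CPM in batch 2. Soma controls reached higher single values, with 417, 363, 582 and 1999 CPM in batch 1 (replicates 1, a, 3 and b). In batch 2 the soma controls held 274, 221, 602 and 767 CPM. Peripheral axon Cre libraries held 69.5, 191, 118 and 127 CPM and their controls 141, 87.4 and 0 CPM.

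Adcyap1, the PACAP gene, had a higher mean in controls than in Cre libraries in 3 of the 4 compartments. Batch 2 somas held 68.1, 44.5, 51.4 and 71.6 CPM with Cre and 76.0, 106, 144 and 191 CPM without, and these groups did not overlap. In batch 1 somas the Cre libraries held 77.4, 104, 64.3 and 164 CPM. The controls were scattered over 22.0, 64.2, 981 and 0.125 CPM (replicates 1, a, 3 and b). Central axon Cre libraries held 87.4, 57.5, 37.7 and 51.1 CPM against 29.1, 37.7, 265 and 68.1 CPM in controls. Peripheral axon libraries held 0, 33.8, 39.3 and 10.6 CPM with Cre and 21.1, 4.01 and 0 CPM without.

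Gal, the galanin gene, overlapped between Cre and control libraries in all compartments. Central axon Cre libraries held 111, 23.8, 27.0 and 36.3 CPM and controls 20.8, 0, 63.3 and 14.8 CPM. Batch 1 somas held 140, 104, 132 and 88.0 CPM with Cre. Without Cre they held 167, 70.1, 1.73 and 1.13 CPM (replicates 1, a, 3 and b), so that 1 control exceeded every Cre library. Peripheral axon Cre libraries held 9.97, 28.2, 56.4 and 25.3 CPM and their controls 24.9, 8.48 and 0 CPM. Batch 2 somas held 43.8, 46.8, 75.5 and 76.7 CPM with Cre and 43.3, 57.7, 67.2 and 202 CPM without.

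Nmb, the neuromedin B gene, was nearly absent from batch 1 controls. Central axon Cre libraries held 91.6, 61.8, 15.1 and 39.7 CPM and their controls 4.93, 0, 0 and 6.96 CPM, with no overlap. Batch 1 soma Cre libraries held 155, 185, 195 and 244 CPM, whereas their controls held 2, 2, 11 and 1 reads in all, or 0.245, 0.235, 1.19 and 0.125 CPM. Batch 2 was different in kind: soma Cre libraries held 72.2, 82.8, 94.2 and 89.3 CPM and soma controls 42.0, 46.9, 85.2 and 18.4 CPM, which overlapped. Peripheral axon Cre libraries held 28.9, 75.6, 75.2 and 78.2 CPM, of which replicate 1 alone lay below the soma Cre range, and their controls held 44.2, 25.6 and 0 CPM.

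Nppb was the rarest member and was found mainly in soma Cre libraries. Batch 1 soma Cre libraries held 32, 53, 1 and 42 reads, or 3.31, 5.16, 0.0863 and 5.56 CPM. Those of batch 2 held 47, 24, 57 and 43 reads, or 2.93, 1.54, 2.90 and 2.46 CPM. Soma controls held 13 reads in batch 2 replicate 5 (0.719 CPM) and none in the other 7. In axons it came from a single library at each site: 33 reads in central axon Cre replicate 1 (3.11 CPM, Wilson 95% interval 2.22 to 4.37) and 43 reads in peripheral axon Cre replicate 2 (2.86 CPM, 2.12 to 3.85). Central axon Cre replicates 2 to 4, with no read, allow up to 0.287 CPM each. Peripheral axon Cre replicates 1, 3 and 4 allow up to 0.732 CPM. The means of the soma Cre libraries, 3.53 and 2.46 CPM, lie above these limits.

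**Figure D1:**
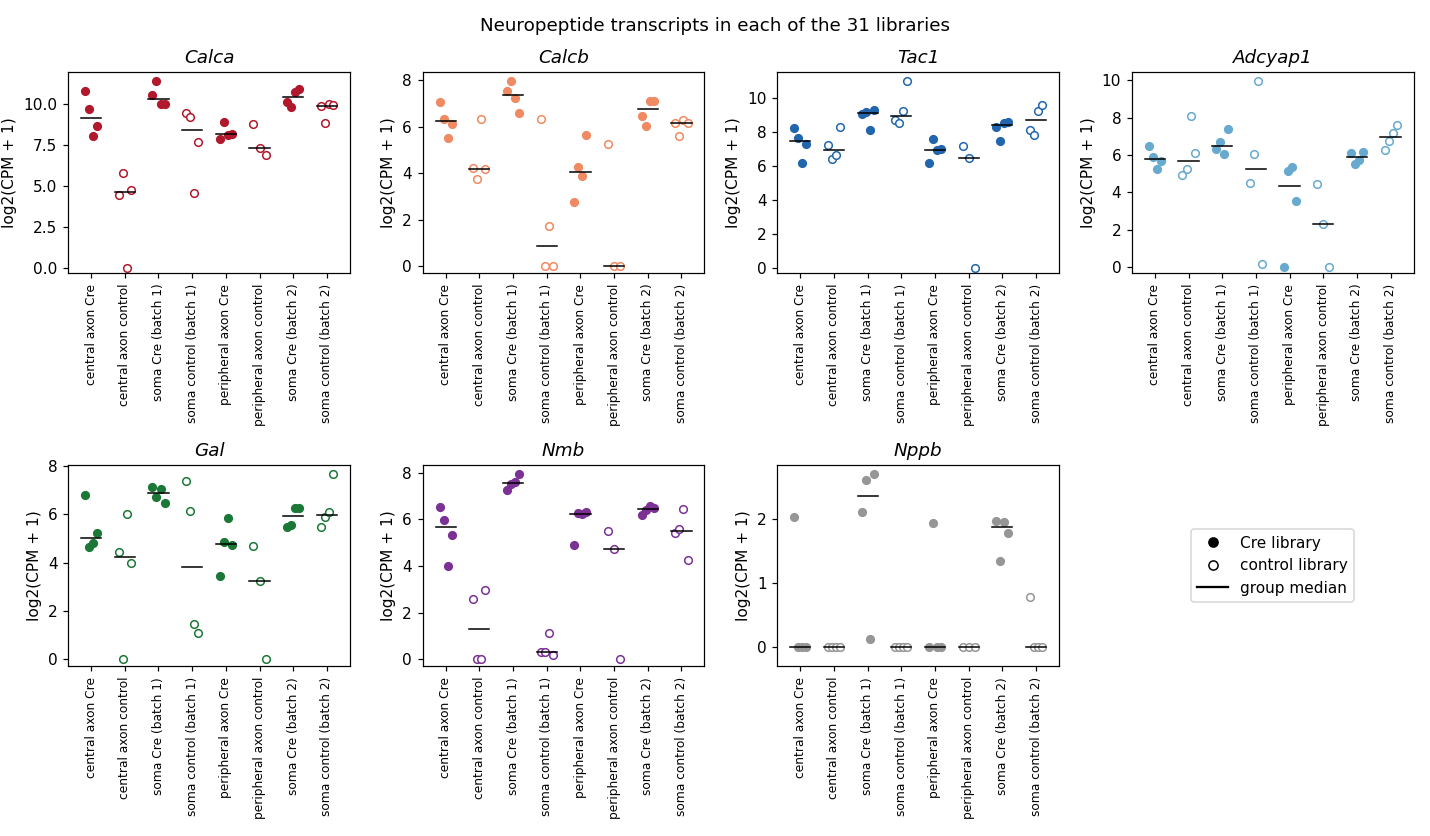
Each panel shows 1 gene; the vertical axis is log2(CPM + 1), the horizontal axis the 8 groups, filled points are Cre libraries, open points control libraries and the bar the group median. Calca in central axon Cre libraries (262 to 1781 CPM) lies above all 4 controls (0 to 55.4 CPM), whereas Tac1 overlaps there, and Nppb is at 0 in most axon and control libraries.

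To compare genes with each other, CPM was divided by the exon length in kb. In batch 2 soma Cre libraries the order was Calca at 836 ± 289 CPM per kb (mean ± SD, n = 4), then Nmb (107 ± 12), Tac1 (90.1 ± 27.1), Calcb (84.2 ± 28.4), Gal (77.0 ± 22.6), Adcyap1 (15.6 ± 3.46) and Nppb (3.15 ± 0.831). The ranges of Nmb, Tac1, Calcb and Gal overlapped, so their order was not resolved, while Calca, Adcyap1 and Nppb each stood clear of their neighbours. Batch 1 soma Cre libraries again had Calca first, at 924 ± 460 CPM per kb (n = 4). Nmb followed at 246 ± 46.7, with all 4 libraries above those of Gal (147 ± 30.6) and Tac1 (147 ± 46.2). Calcb (134 ± 50.8) reached into its range, with 197 in its highest library against 196 in the lowest of Nmb.

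Both axon sites also had Calca first and Adcyap1 and Nppb last by group mean. In central axon Cre libraries Calca stood at 483 ± 407 CPM per kb, and Nmb (65.6 ± 41.0), Calcb (64.4 ± 29.5), Gal (62.7 ± 52.2) and Tac1 (53.4 ± 28.4) lay within each other's spread (SD, n = 4 each). Adcyap1 (15.5 ± 5.56) overlapped the lowest library of Tac1. In peripheral axon Cre libraries Calca stood at 189 ± 64.6 and Nmb at 81.3 ± 29.9. Gal (38.0 ± 24.5), Tac1 (37.2 ± 14.7) and Calcb (17.0 ± 14.7) followed, with overlapping ranges, and Adcyap1 was at 5.54 ± 4.95 CPM per kb.

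Expressed as a share of the summed CPM per kb of the 7 genes, Calca made up 52.9% to 68.9% in central axon Cre libraries and 0% to 42.6% in their controls. Tac1 made up 5.78% to 10.4% of the sum in those Cre libraries and 11.9% to 54.6% in the controls. The controls thus held a different mixture, with Tac1, Adcyap1, Gal and Calcb in larger proportion on average. In peripheral axon Cre libraries Nmb took 17.3% to 25.9% of the sum, above its 7.09% to 12.9% in the soma Cre libraries of that batch. Calca took 42.4% to 64.8% there, below its 65.2% to 71.4% in those somas. The soma Cre libraries of batch 1 overlapped these axon ranges, with 9.92% to 23.1% for Nmb and 45.3% to 67.4% for Calca. These shares are descriptions of each library and were not tested.

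**Figure D2:**
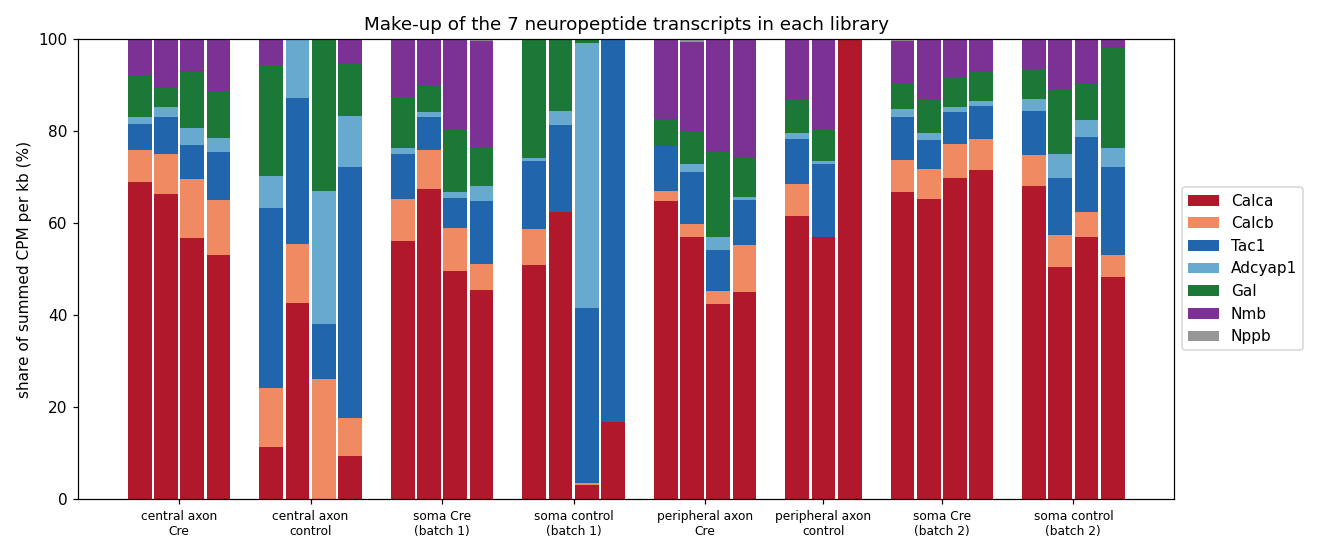
Each column is 1 library and the coloured segments, which add to 100%, are the shares of the 7 genes in their summed CPM per kb; libraries are grouped along the horizontal axis by compartment and genotype. Calca fills 52.9% to 68.9% of each central axon Cre column, while central axon control columns hold 0% to 42.6% of Calca and more Tac1.

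The comparison of Cre with control libraries asks which of these transcripts the tagged ribosomes carried above what the pulldown recovers without a tag. In central axon 0 of 6 members tested were called, beside 0.0141% of the 14189 genes tested; Nppb had too few reads to test. Calca had the largest difference of the members, 813 ± 686 CPM with Cre against 25.6 ± 22.8 CPM without (SD, n = 4 each), or 5.13 on the log2 scale (SE 1.27, edgeR quasi-likelihood adjusted p = 0.227). Nmb followed, with 52.1 ± 32.5 against 2.97 ± 3.53 CPM, or 4.17 (SE 1.69, adjusted p = 0.903, edgeR). Both were higher in every Cre library than in any control, which held for 6.82% of all genes tested. Calca was called without the low-count filter (5.17, adjusted p = 0.0322, edgeR) and by DESeq2 (5.03, adjusted p = 0.0165).

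The remaining members differed less in central axon. Calcb had a log2 difference of 1.44 (SE 0.78), Gal 1.10 (SE 1.35), Tac1 0.26 (SE 0.57) and Adcyap1 −0.70 (SE 0.74), each with an edgeR adjusted p of 1.00. The direction of Adcyap1 rested on control replicate 3, without which the difference was 0.46, and that of Tac1 on Cre replicate 1, without which it was −0.19. Markers of other cells were present in both groups: 8 of 8 spinal cord neuron markers had reads in each group, with summed levels of 305 to 490 CPM in Cre libraries and 272 to 777 CPM in controls. Markers of astrocytes summed to 296 to 1347 CPM with Cre and 1329 to 2347 CPM without. Spinal neurons are themselves known to express Tac1 and Adcyap1; the part of these cells in the values was not tested.

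In peripheral axon 0 of 6 members tested were called, beside 0% of 13970 genes; edgeR found 514 of those genes at an unadjusted p under 0.05, and DESeq2 called 89, none of them a member. All 6 fitted differences were above 0, with a median of 1.21 against 0.07 over all genes, and Cre and control libraries overlapped for all 6, whereas 6.44% of genes had no overlap. Gal had 1.56 (SE 1.40), Nmb 1.53 (SE 1.22), Adcyap1 1.49 (SE 1.87) and Calcb 0.92 (SE 1.85). Tac1 had 0.79 (SE 1.20) and Calca 0.52 (SE 0.52), each with an edgeR adjusted p of 1.00. Control replicate 4, in which Calca was the only member with a read and Scn10a had none, was the lowest of its group, or tied for it, in each.

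Among batch 1 somas 0 of 6 members tested were called, beside 4.42% of 11667 genes. Nmb stood highest, with 195 ± 37.0 CPM against 0.448 ± 0.495 CPM (SD, n = 4 each), or 4.67 on the log2 scale (SE 1.81, edgeR adjusted p = 0.280). Its call depended on the settings: it was called with library size alone (8.71, adjusted p = 0.00305, edgeR), without the low-count filter (7.32, adjusted p = 0.0407), by DESeq2 (5.38, adjusted p = 0.0133) and in a joint fit with the central axon groups (7.99, adjusted p = 0.0330). Without control replicate 3, the library with the outlying scaling factor, the log2 difference of Nmb was 9.69 (edgeR adjusted p = 0.00703). Nppb, at 3.53 ± 2.50 CPM against no read in 4 controls, was at least 9.95-fold higher over a floor of 3 counts per library.

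Calca, Calcb and Nmb were higher in every batch 1 soma Cre library than in any control, in a comparison in which 28% of the genes tested were. Nppb, not tested in the main fit, had a single read in soma Cre replicate 3, under the floor of 3 counts. It was called without the low-count filter and by DESeq2. Calca had a log2 difference of 1.39 (SE 1.27, edgeR adjusted p = 0.587) and Calcb of 2.22 (SE 1.79, adjusted p = 0.537). Adcyap1 had −6.16 (SE 2.89, edgeR adjusted p = 0.335) and 1.65 without control replicate 3, the library that held 981 CPM. Tac1 had −3.36 (SE 1.81, edgeR adjusted p = 0.377), which ran from −3.54 to −1.12 with 1 library left out at a time. Its means were 498 ± 157 CPM with Cre and 840 ± 778 CPM without (SD, n = 4 each). Gal had 0.60 (SE 1.23, edgeR adjusted p = 0.822).

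Among batch 2 somas 0 of 7 members were called by edgeR, beside 0% of 15280 genes, 2503 of them at an unadjusted p under 0.05; DESeq2 called 1547 genes. Of these libraries, the 4 with Cre held 15.6 to 19.6 M reads, and 3 of the 4 controls held 3.6 to 4.52 M. Nppb had the largest log2 difference, 3.47 (SE 1.21, edgeR adjusted p = 0.184), from 2.46 ± 0.649 CPM with Cre and 0.180 ± 0.360 CPM without (SD, n = 4 each); DESeq2 called it (3.46, adjusted p = 0.0339). Nmb had 1.12 (SE 0.41, edgeR adjusted p = 0.200), Calca 1.01 (SE 0.37, adjusted p = 0.210) and Calcb 0.97 (SE 0.34, adjusted p = 0.182). Adcyap1 had −0.87 (SE 0.33, edgeR adjusted p = 0.221), with no overlap, in a comparison in which 7.58% of genes were lower in every Cre library. Tac1 had −0.32 (SE 0.41) and Gal −0.33 (SE 0.49), and 0.06 and 0.44 without control replicate 8. Without control replicate 7 Nmb was called (1.51, edgeR adjusted p = 0.0469), and without control replicate 5 Nppb was (adjusted p = 0.0232). Nppb was higher in every Cre library, as were 4.29% of genes.

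**Figure D3:**
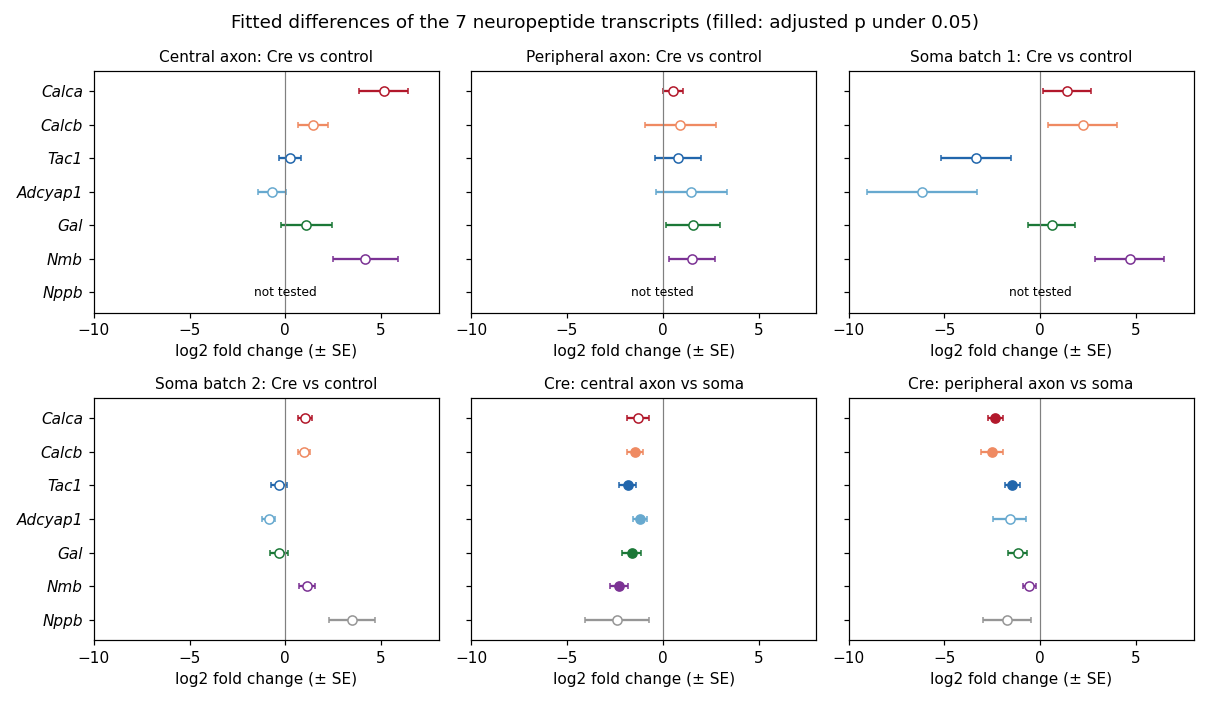
Points are fitted log2 fold changes of the 7 genes and bars their SE, with 1 panel per comparison; filled points have an adjusted p under 0.05 in edgeR's quasi-likelihood test. No point is filled in the 4 panels of Cre against control, and 5 and 3 genes are filled, all below 0, in the panels of central and peripheral axon against soma.

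The comparison of axon with soma among Cre libraries sets the RNA pulled down from axon tissue beside that pulled down from somas. It does not take away what the pulldown recovers without a tag. In central axon 5 of 7 members were lower than in soma, beside 5.11% of 14480 genes called lower and 13.7% called in either direction. The members' median log2 difference was −1.62, against 0.05 over all genes. Fewer axons and less RNA per axon cannot be told apart in such pools, and a difference is relative to the other RNA of the library. Nmb fell by 2.29 (SE 0.48, edgeR adjusted p = 0.00909), from 195 ± 37.0 to 52.1 ± 32.5 CPM (SD, n = 4 each), and was the only member below its soma level in every axon library, as were 4.17% of genes. Tac1 fell by 1.84 (SE 0.45, edgeR adjusted p = 0.0177), from 498 ± 157 to 181 ± 96.4 CPM.

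Gal, Calcb and Adcyap1 passed the same test by a smaller margin. Gal fell by 1.62 (SE 0.50, edgeR adjusted p = 0.0486), from 116 ± 24.1 to 49.4 ± 41.1 CPM. Calcb fell by 1.46 (SE 0.41, edgeR adjusted p = 0.0338), from 169 ± 64.2 to 81.4 ± 37.3 CPM, and Adcyap1 by 1.19 (SE 0.37, edgeR adjusted p = 0.0489), from 102 ± 44.1 to 58.4 ± 21.0 CPM. Calca had −1.28 (SE 0.59, edgeR adjusted p = 0.163), from 1556 ± 775 to 813 ± 686 CPM, and Nppb −2.39 (SE 1.65, adjusted p = 0.364).

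These central axon calls moved with the libraries and the scaling. Without central axon Cre replicate 1, the library richest in all members, all 7 were called lower; without replicate 2 or 4 only Nmb was, and without replicate 3 or any of soma replicates 1 to 3, only Nmb and Tac1. Library size alone left Tac1 and Nmb called, with 2146 genes higher and 293 lower in place of 1250 and 740. The 1990 genes called in all ran from 822 to 2717 with 1 library left out. With the controls fitted jointly, 0 members and 15 genes were called. In that fit the control libraries enter the filter, the scaling and the estimate of spread. The median log2 difference of all genes was then 0.43 in place of 0.05. The part of each in the loss of calls was not tested.

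In peripheral axon 3 of 7 members were lower than in soma, beside 12.5% of 15467 genes called lower and 31.2% called in either direction. The members' median log2 difference was −1.59, against −0.03 over all genes. Calcb fell by 2.52 (SE 0.56, edgeR adjusted p = 0.00564), from 106 ± 35.9 to 21.5 ± 18.6 CPM (SD, n = 4 each). Calca fell by 2.34 (SE 0.40, edgeR adjusted p = 0.00128), from 1407 ± 486 to 318 ± 109 CPM. Tac1 fell by 1.45 (SE 0.38, edgeR adjusted p = 0.0132), from 306 ± 92.3 to 126 ± 50 CPM, with 1 axon library above the lowest soma library. Calca, Calcb and Adcyap1 were below soma in every axon library, as were 16% of genes.

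Nmb, by contrast, did not pass the test in peripheral axon: 84.6 ± 9.50 CPM in soma and 64.5 ± 23.7 CPM in axon, or −0.57 (SE 0.35, edgeR adjusted p = 0.237). Adcyap1 had −1.59 (SE 0.87, edgeR adjusted p = 0.185), Gal −1.18 (SE 0.50, adjusted p = 0.0933) and Nppb −1.72 (SE 1.24, adjusted p = 0.315). Gal was called without the low-count filter (−1.33, edgeR adjusted p = 0.0464) and by DESeq2 (−1.29, adjusted p = 0.0495). With the controls fitted jointly, Calca alone was called. Leaving out 1 library at a time left Calca, Calcb and Tac1 called in all 8 fits. In 3 of these another member was called too: Adcyap1 without axon replicate 1 (edgeR adjusted p = 0.0354), Nppb without replicate 2 (adjusted p = 0.00361) and Gal without replicate 3 (adjusted p = 0.0141). Schwann cell and satellite glia markers summed to 10616 to 27579 CPM in the peripheral axon Cre libraries and to 680 to 828 CPM in the somas of that batch, and their part in the relative levels was not tested.

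The difference between the sites was tested directly, as axon minus soma in batch 1 against axon minus soma in batch 2, where 13.1% of 16725 genes were called and 0 of 7 members. Nmb had −1.56 (SE 0.61, edgeR adjusted p = 0.0945), which is a lower axon level relative to soma at the central site. It was called without central axon Cre replicate 1 (−2.06, edgeR adjusted p = 0.0254) or peripheral axon Cre replicate 1 (−1.80, adjusted p = 0.0374). Mean Nmb levels with Cre were 52.1 CPM in central axon and 195 CPM in its somas, and 64.5 CPM in peripheral axon and 84.6 CPM in its somas. The means lay further apart between the soma groups than between the axon groups, and both enter this value. Calcb had 1.22 (SE 0.70, edgeR adjusted p = 0.261) and Calca 1.19 (SE 0.74, adjusted p = 0.300). Tac1 had −0.24 (SE 0.60), Gal −0.28 (SE 0.74), Adcyap1 0.56 (SE 0.97) and Nppb −0.52 (SE 2.22). Site and batch cannot be told apart in these values.

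Whether the excess of Cre over control libraries differed between axon and soma was tested in each batch. In batch 1, 0 of 15355 genes were called by edgeR, with 3133 at an unadjusted p under 0.05; without soma control replicate 3, 1111 genes were called. Calca had the difference furthest above 0 among the members, 3.09 (SE 1.42, edgeR adjusted p = 0.219), and Nmb the furthest below, −3.89 (SE 2.03, adjusted p = 0.284). In batch 2, 0.00636% of 15717 genes were called and 0 of 7 members, whose edgeR adjusted p was 0.684 or more. Adcyap1 stood at 2.28 (SE 1.55) and Calca at −0.57 (SE 0.66) there.

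The somas, sequenced in both batches, show how far these levels vary between batches. All 7 members had a log2 difference above 0 for batch 1 over batch 2, and Nmb was called, beside 1.36% of 14899 genes called higher and 9.69% called in either direction. Nmb was higher by 1.19 (SE 0.23, edgeR adjusted p = 0.00429) and Gal by 0.95 (SE 0.31, adjusted p = 0.0869), both without overlap, as were 3.55% of genes in that direction. Gal was called by DESeq2 (0.97, adjusted p = 0.0463) and by edgeR without batch 1 replicate 4 (1.10, adjusted p = 0.0279). Adcyap1 had 0.77 (SE 0.28), Tac1 0.68 (SE 0.31), Calcb 0.67 (SE 0.35), Nppb 0.46 (SE 0.78) and Calca 0.13 (SE 0.38), which was −0.21 without batch 1 replicate 2. Among other pathway genes, Pcsk1n (proSAAS, an inhibitor of the prohormone convertase PC1) was higher in batch 1 by 1.42 (SE 0.32, edgeR adjusted p = 0.0113) and Vgf, a granin-like precursor, by 1.36 (SE 0.34, adjusted p = 0.0209). Baiap3, a dense core vesicle trafficking gene, had no read in the batch 1 soma Cre libraries and 21.8 ± 4.35 CPM in those of batch 2 (SD, n = 4), at least 69.3-fold lower in batch 1.

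The machinery that makes and stores peptides gives the setting for these values. Of 12 processing enzymes and partners, 11 were tested in central axon against soma and none was called, with a median of −0.56. In peripheral axon 4 of 12 were called higher and 2 lower, with a median of 1.31, beside 18.7% of all genes called higher and 12.5% lower. Markers of other cells were higher in the same comparison, with 6 of 8 Schwann and satellite glia genes, 6 of 6 fibroblast genes and 4 of 4 tested muscle genes called; their part in these values was not tested. Cpd, a carboxypeptidase, was higher by 1.96 (SE 0.29, edgeR adjusted p = 5.99e-04) and Qpct, a glutaminyl cyclase, by 3.64 (SE 0.90, adjusted p = 0.0104). Pcsk2, the prohormone convertase PC2, fell by 1.59 (SE 0.33, edgeR adjusted p = 0.00400), and Scg5, its chaperone 7B2, fell by 1.92 (SE 0.55, adjusted p = 0.0200).

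Of 17 genes of dense core vesicle cargo and release, 2 were called higher and 2 lower in central axon against soma, with a median of −0.54, beside 8.63% of all genes called higher and 5.11% lower. Baiap3 was at least 140-fold higher, since the batch 1 soma Cre libraries had no read. Those of batch 2 did hold Baiap3, as given above, so this bound applies to the batch 1 somas only. Cadps2, a vesicle priming factor, was higher by 2.54 (SE 0.63, edgeR adjusted p = 0.0201). Syt7 and Syt4, both synaptotagmins, fell by 1.42 (SE 0.38, edgeR adjusted p = 0.0261) and by 1.45 (SE 0.41, adjusted p = 0.0346). In peripheral axon 1 was called higher and 4 lower, with a median of −1.001, a share of calls like the 31.2% of all genes called. Vps13a, a lipid transfer protein gene, was higher by 1.42 (SE 0.38, edgeR adjusted p = 0.0154). Rab3a, a vesicle GTPase, fell by 2.55 (SE 0.35, edgeR adjusted p = 3.08e-04), Scg2, the secretogranin II precursor, by 1.86 (SE 0.50, adjusted p = 0.0153) and Rab27b by 2.22 (SE 0.60, adjusted p = 0.0164).

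Some receptors of the 7 peptides were higher in axon than in soma among Cre libraries. Against controls, 7 of 11 tested in central axon had a log2 difference below 0 (median −0.45). In peripheral axon 5 of 9 did (median −0.38), and none was called against controls at either site. In central axon 2 of 9 tested were called higher than in soma, beside 8.63% of all genes: Adcyap1r1, the PACAP receptor, by 6.67 (SE 0.70, edgeR adjusted p = 1.37e-04) and Ramp1, a subunit of the CGRP receptor, by 4.91 (SE 0.91, adjusted p = 0.00513). In peripheral axon 4 of 10 tested were higher and 1, Crcp, was lower, beside 18.7% and 12.5% of all genes. Npr3, the natriuretic peptide clearance receptor, was higher by 5.02 (SE 0.48, edgeR adjusted p = 4.4e-05), Ramp2 by 2.48 (SE 0.43, adjusted p = 0.00158), Adcyap1r1 by 5.19 (SE 0.95, adjusted p = 0.00207) and Calcrl, the core of the CGRP receptor, by 3.85 (SE 0.83, adjusted p = 0.00491). Markers of other cells differed in the same comparisons. In central axon 5 of 6 astrocyte genes were called higher (median 5.72). Of 8 spinal cord neuron genes, 7 were called higher and 1 lower (median 6.81). In peripheral axon Schwann and satellite glia genes had a median of 5.03 and fibroblast genes of 4.20. The part of these cells was not tested.

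Of 23 other neuropeptides, 10 were tested in central axon against soma and 7 were called higher, with none lower and a median of 3.79, beside 8.63% of all genes called higher. In central axon Cre against control libraries 12 of 13 tested had a log2 difference below 0, with a median of −0.86 and none called. Somatostatin (Sst) stood at 154 ± 70.9 CPM against 0.177 ± 0.207 CPM in soma, and neuropeptide Y (Npy) at 47.6 ± 4.83 CPM against no read, at least 151-fold higher (SD, n = 4 each). Pnoc, the nociceptin precursor, was higher by 9.06 (SE 0.96, edgeR adjusted p = 1.37e-04) and Pdyn, the dynorphin precursor, by 5.93 (SE 1.12, adjusted p = 0.00565). The summed spinal cord neuron markers ran from 305 to 490 CPM in the central axon Cre libraries. In the batch 1 soma Cre libraries they ran from 183 to 270 CPM. There 3 of the 8 markers (Slc32a1, Gad2 and Slc6a5) had no read, and 2 of the 8 had over 3 counts in every library. Gene by gene, 7 were called higher in central axon than in soma and 1 lower (median 6.81), which the sums do not show. The part of spinal cord neurons in these values was not tested. In peripheral axon Cre libraries 3 of the 8 spinal cord neuron markers (Slc32a1, Gad2 and Slc6a5) had no read. All 8 summed to 16.5 to 47.9 CPM there. In peripheral axon against soma, 4 of the 23 other neuropeptides were tested. Of these 1 was called, the enkephalin gene Penk, higher by 2.50 (SE 0.78, edgeR adjusted p = 0.0307).

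Nociceptor markers had medians below 0 in both axons. Of 8 listed, 7 were tested at each site, with a median of −1.41 and 3 called lower in central axon and a median of −1.67 and 5 called lower in peripheral axon, beside 5.11% and 12.5% of all genes called lower. The medians of the 7 peptides, −1.62 and −1.59, lay close to these, and no test compared the lists. In Cre against control libraries no gene of the other neuropeptide, enzyme or receptor lists was called in any compartment, and of the vesicle genes only Cadps2 was, in batch 1 soma, at least 8.10-fold higher over a floor of 3 counts. With control replicate 1, a or b left out in turn, edgeR called 0 genes in that comparison each time.

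**Figure D4:**
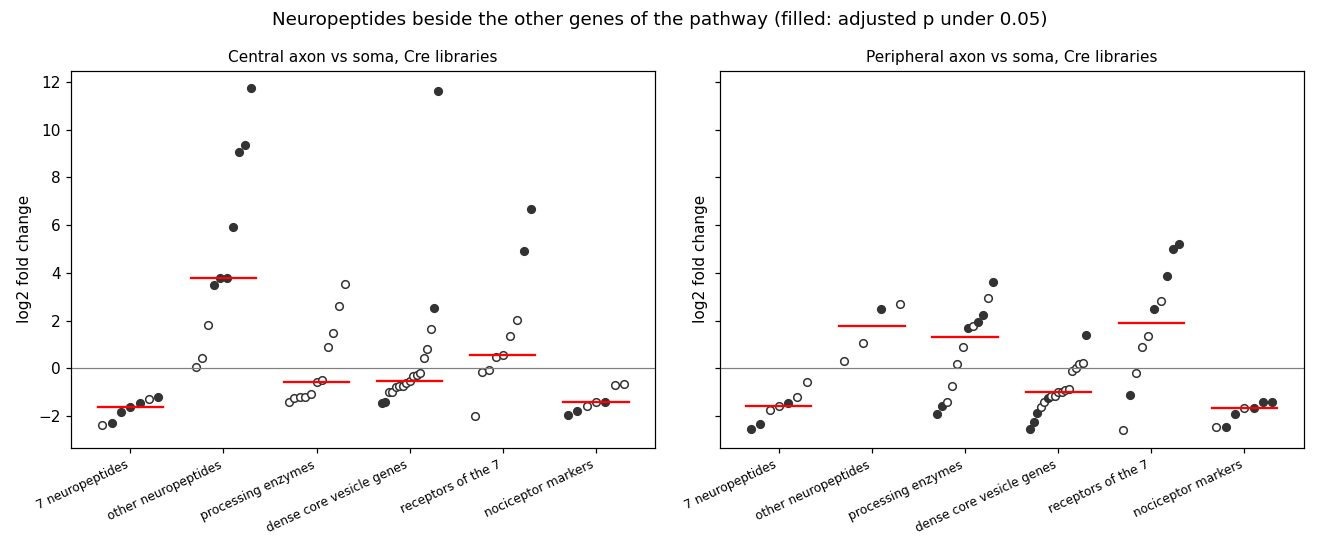
Each point is the log2 fold change of 1 tested gene for axon against soma among Cre libraries, arranged by list along the horizontal axis; filled points have an adjusted p under 0.05 and the red line is the list's median. The 7 neuropeptides have medians of −1.62 (central) and −1.59 (peripheral), near those of the nociceptor markers, while other neuropeptides have a median of 3.79 in central axon.

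The genes whose levels most resembled each member's were found from log2 normalised CPM over all 31 libraries, each profile centred on its mean, by the root mean square (RMS) difference among 13929 protein-coding genes. Calca lay nearest to Isl1 (RMS 1.09), a transcription factor of sensory neurons, and Esyt1 (1.12). Tac1 lay nearest to Elavl4 (0.92), a neuronal RNA-binding protein gene, and Syt7 (0.94). Nmb lay nearest to Tspo (0.99) and Krt27 (1.16), Gal to Zrsr1 (1.13) and Med31 (1.33), and Adcyap1 to Borcs8 (1.42) and Amer2 (1.51). Calcb lay nearest to Samd10 (1.55), further off than the nearest gene of any other member, and the sparse Nppb lay nearest to Slc16a12 (0.91) and Agtr1b (1.07). No member was the nearest gene of another: the closest pairs of members were 2.22 (Tac1 and Gal) to 2.53 (Nmb and Calca) apart.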

How the data were processed

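The authors deposited raw read counts per gene in a table per batch, per the file headers; reads were aligned with STAR 2.7.2b to mm10, per the submitters' processing notes. The libraries were made with the SMART-Seq v4 kit from under 100 pg (axon) or 1 ng (soma) of RNA, per the labels' protocols, and carry no molecular identifiers, so intervals and floors cover counting error only. The handling of strand and of reads that fit several genes is not given in the sources used here. Symbols and exon lengths came from GENCODE M21 (55450 of 55536 identifiers matched).

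Counts were fitted as deposited with edgeR 4.0.16 in R 4.3.3 (filterByExpr with a minimum count of 10 and a minimum total of 15, TMM, glmQLFit, glmQLFTest), using only the groups compared, with Benjamini-Hochberg adjustment over all genes. There were 10 comparisons. SE is the fold change over the square root of F. Fitting was tested on simulated data. A fold against a group with no read is a lower bound over 3 counts per library. The other settings were RLE size factors, library size alone, no low-count filter, DESeq2 1.42.0, a joint fit of the 4 groups of a batch, the replicate number as a block, and each library left out. Replicates are labelled biological; the lowest chi-square over its degrees of freedom in 45 replicate pairs was 22.5, so none were copies. The 7 members were named throughout; of each other list, up to 4 genes per comparison with the smallest adjusted p were named. Members and lists were chosen with earlier results of these data known. Matching of same-numbered libraries was checked by correlating deviations from group means.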

Additional observations from a re-analysis of the deposited data

Results flagged for a closer look

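A single library was listed when its gap to the other 3 of its group, in a member's CPM, passed a cut-off. Normally distributed values pass that cut-off in about 1 group in 20. CPM was not shown to be so distributed and members share libraries, so the number listed cannot be compared with chance. Where only 1 library held reads, as for Nppb below, the cut-off is passed by construction. In 13 of 47 combinations of a member and a group of 4 libraries, a single library lay that far from the other 3. In batch 1 soma controls these were Adcyap1 at 981 CPM in replicate 3 (the others up to 64.2), Tac1 at 1999 CPM in replicate b (the others up to 582), Calcb at 79.5 CPM in replicate 1 (the others up to 2.27) and Nmb at 1.19 CPM in replicate 3 (the others up to 0.245). Central axon control replicate 3 stood out for Adcyap1 (265 CPM, the others up to 68.1) and Calcb (80.3 CPM, the others up to 17.6). In batch 2 soma controls Gal was high in replicate 8 (202 CPM, the others up to 67.2), Calca was low in replicate 6 (449 CPM, the others from 948) and Nppb was found in replicate 5 alone (0.719 CPM).

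Among Cre libraries, Gal was high in central axon replicate 1 (111 CPM, the others up to 36.3) and Nmb low in peripheral axon replicate 1 (28.9 CPM, the others from 75.2). Nppb was found in central axon replicate 1 alone (3.11 CPM) and in peripheral axon replicate 2 alone (2.86 CPM). No soma Cre library stood apart in this way for any member.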

How the results depend on the processing

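Depth limits Nppb, whose axon values rest on the reads of a single library at each site. Batch 1 soma control replicate 3 had a TMM factor of 0.0497, computed over all 31 libraries, at a depth of 9.27 M. Of the members' fold changes refitted under another setting, 295 stayed on their side of the threshold with the same direction, 11 gained and 10 lost a call, and 1 changed direction, Calcb in the difference between peripheral axon and soma of the Cre-control contrast, at 0.13 with library size alone. Relative to the fits as reported, library size alone moved the median log2 difference of all genes by over 0.1 in several comparisons (central axon against soma, 0.50 in place of 0.05; batch 1 soma Cre against control, 0.36 in place of −0.45).

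Members called changed as follows. In central axon Cre against control, 0 became 1 without the low-count filter and with DESeq2. In batch 1 soma Cre against control, 0 became 1 with library size alone or a joint fit of the batch. There it became 2 (Nmb and Nppb) without the filter or with DESeq2. In batch 2 soma, 0 became 1 with DESeq2. In central axon against soma, 5 became 2 with library size alone and 0 with a joint fit of the batch; in peripheral axon against soma, 3 became 1 with a joint fit; between soma batches, 1 became 2 with DESeq2.

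Genes called over all genes changed by more than 1.5 times as well. Central axon Cre against control went from 2 to 34 without the filter, 439 with DESeq2 and 1 with a joint fit of the batch. Peripheral axon went from 0 to 89 with DESeq2 and 1 with a joint fit. Batch 1 soma went from 516 to 2244 with library size alone, 1700 without the filter, 1544 with DESeq2 and 2114 with a joint fit. Batch 2 soma went from 0 to 21 with RLE, 257 with library size alone, 162 without the filter, 1547 with DESeq2 and 175 with a joint fit. Axon against soma went from 1990 to 3752 (DESeq2) and 15 (joint fit) in central axon, and from 4818 to 7277 and 1404 in peripheral axon. Soma batches went from 1444 to 2297 with DESeq2. The axon-soma difference of the Cre-control contrast went from 0 to 1 (RLE) and 320 (no filter) in batch 1, and from 1 to 23 (no filter) in batch 2. The cause was not tested.

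With 1 library left out at a time, members called ran from 1 to 7 in central axon against soma, 0 to 2 in batch 1 soma, 0 to 1 in batch 2 soma, 1 to 2 between soma batches, 0 to 1 between sites and 0 to 1 in the batch 2 axon-soma difference. Log2 differences that changed sign were, in Cre against control, Adcyap1 in batch 1 soma (−6.52 to 1.65) and central axon (−1.05 to 0.46), Tac1 in central axon (−0.19 to 0.84) and batch 2 soma (−0.55 to 0.0634) and Gal in batch 2 soma (−0.54 to 0.44); and Calca between soma batches (−0.21 to 0.32). In the batch 1 axon-soma difference they were Adcyap1 (−2.51 to 6.19), Gal (−0.61 to 1.35) and Nmb (−5.65 to 0.0447). In that of batch 2 they were Calca (−0.94 to 0.16), Calcb (−0.81 to 9.46), Nmb (−0.26 to 1.06) and Nppb (−3.66 to 2.63); between sites, Gal (−1.15 to 0.19), Nppb (−6.59 to 5.51) and Tac1 (−0.67 to 0.0714). All genes called in batch 1 soma ran from 0 to 3094 and in batch 2 soma from 0 to 1826, in central axon against soma from 822 to 2717 and in the batch 1 axon-soma difference from 0 to 1111.

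The replicate numbers were not taken as pairing the libraries, since in no comparison did every same-numbered pair correlate above 0.1: the values were −0.05 to 0.23 in central axon against soma, and in Cre against control −0.02 to 0.07 in central axon, −0.12 to 0.14 in peripheral axon, 0.00936 to 0.131 in batch 1 soma and −0.01 to 0.24 in batch 2 soma. In central axon against soma not every library correlated best with its own number. With the replicate number as a block, 6 members were called in place of 5 in central axon against soma, Calca being added (−1.67, edgeR adjusted p = 0.0243), and 0 members in each Cre-control comparison, where 1 gene was called in central axon and 0 in batch 1 soma.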
